A study of Mus musculus with 36 samples.

Results

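The genes described here mark the identity of the conventional dendritic cell (cDC) subsets of the mouse spleen. They are 10 genes of the 16593 named on the array, taken by name. The choice was made with earlier results of these data known. The 6 type 1 genes were Cd8a, Cd8b1, Itgae, Xcr1, Batf3 and Cadm1, and the 4 type 2 genes were Itgam, Sirpa, Esam and Dtx1. Of these, 9 were measured well enough to be tested, among 9606 genes tested in all. The exception was Cd8a, whose single probe was not above background on any of 36 arrays.

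All RNA came from sorted CD11c-high, CD3-, DX5- and B220- splenic DCs, labelled C57BL/6. By the study's methods, treated DCs came from bone marrow mixed chimeras, in which the CD45.2 marker separated the genotypes. Mice were used at 7 to 8 weeks of age. The groups were WT DCs 4 h after poly IC (8 samples), PRR-/- DCs at 4 h (4 samples), IFNAR-/- DCs at 4 h (4 samples), WT DCs at 14 h (6 samples), IFNAR-/- DCs at 14 h (3 samples) and unstimulated DCs (8 samples). Poly IC is a synthetic double-stranded RNA, and treated mice received 50 µg of it intraperitoneally. PRR-/- DCs lack both MDA5 and TLR3, the sensors of such RNA, and IFNAR-/- DCs lack the type I interferon (IFN) receptor. In a chimera both sit in the same host as WT DCs, so that knockout cells are exposed to an environment that WT cells also make. The unstimulated DCs are labelled as untreated with no genotype given, while the study's text says that its negative controls were pooled from WT and knockout DCs of chimeras given PBS and from DCs of PRR-/- mice given poly IC. Neither says from which of them a given unstimulated sample came. For a heat map of WT, IFNAR-/- and untreated DCs, the paper describes each sample as a pool of 6 mice. The labels also do not say which samples came from the same mice or pools. The p-values therefore measure the spread between these samples and not between single mice. No PRR-/- DCs at 14 h were in the samples analysed here.

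In mice, type 1 cDCs are the cells that present antigen from dead cells to CD8+ T cells, and their development needs the transcription factors Batf3 and Irf8. They are recognized by surface CD8α, the integrin CD103 (Itgae), the chemokine receptor Xcr1 and the adhesion molecule Cadm1. Type 2 cDCs of the spleen carry CD11b (Itgam) and SIRPα, and a large part of them also carries the adhesion molecule Esam and depends on Notch2, with Dtx1 as a known Notch target. Because whole sorted populations were measured, a lower signal can come from fewer cells of a type or from less RNA per cell, and these cannot be told apart here.

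Promoter windows of 300 bases, from 250 before to 50 after the annotated start, were found in RefSeq (build GRCm38.p6) for 5 of the 10 genes, Cd8a, Xcr1, Batf3, Itgam and Dtx1. The 4 windows below are shown because Batf3, Xcr1, Itgam and Dtx1 each passed the adjusted p against unstimulated DCs in the results that follow. They are written 5′ to 3′ on the strand of the gene, and capitals mark a match to a searched motif. They lie at chr1:191098164-191098463 on the plus strand (Batf3), chr9:123861980-123862279 on the minus strand (Xcr1), chr7:128062390-128062689 on the plus strand (Itgam) and chr5:120711620-120711919 on the minus strand (Dtx1).
Batf3: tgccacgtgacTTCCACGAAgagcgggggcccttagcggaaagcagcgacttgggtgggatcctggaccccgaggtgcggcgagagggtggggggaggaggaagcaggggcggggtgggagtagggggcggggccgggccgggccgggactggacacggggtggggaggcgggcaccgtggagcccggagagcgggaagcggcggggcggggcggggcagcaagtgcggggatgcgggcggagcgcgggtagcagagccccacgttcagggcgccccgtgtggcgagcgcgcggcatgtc
Xcr1: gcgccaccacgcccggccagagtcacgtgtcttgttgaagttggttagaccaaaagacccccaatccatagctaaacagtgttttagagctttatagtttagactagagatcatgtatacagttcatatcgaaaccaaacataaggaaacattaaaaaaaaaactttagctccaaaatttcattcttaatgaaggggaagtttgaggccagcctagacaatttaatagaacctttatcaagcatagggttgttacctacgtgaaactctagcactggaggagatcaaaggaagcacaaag
Itgam: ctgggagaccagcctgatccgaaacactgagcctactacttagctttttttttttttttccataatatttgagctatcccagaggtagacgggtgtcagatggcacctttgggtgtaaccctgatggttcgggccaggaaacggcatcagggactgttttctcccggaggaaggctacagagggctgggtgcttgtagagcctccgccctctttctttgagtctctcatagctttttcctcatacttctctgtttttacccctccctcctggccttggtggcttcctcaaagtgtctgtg
Dtx1: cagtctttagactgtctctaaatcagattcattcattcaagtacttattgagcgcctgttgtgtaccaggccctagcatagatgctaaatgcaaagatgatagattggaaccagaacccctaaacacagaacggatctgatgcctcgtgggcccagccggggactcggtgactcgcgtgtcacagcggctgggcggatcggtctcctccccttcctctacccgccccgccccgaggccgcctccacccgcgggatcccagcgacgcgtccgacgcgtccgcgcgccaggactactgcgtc
Both strands were searched for the interferon response element core GAAANNGAAA, the STAT element TTCNNNGAA, the RBPJ (Notch) core TGGGAA and the AP-1 element TGANTCA. Over 32851 windows of the same length, 3.4% held the first, 8.3% the STAT element, 25.6% the RBPJ core and 7.8% the AP-1 element. The Batf3 window held 1 STAT element (TTCCACGAA) and the Cd8a window 1 RBPJ core, while the windows of Xcr1, Itgam and Dtx1 held none of the 4 motifs. A match is a description of the letters and not a site of binding.

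Values below are log2 of the quantile-normalized bead signal, called log2 levels, and each sample is 1 array or, in 3 cases, the mean of 2 arrays of a group that differed less than any other pair of that group. Signals under the detection limit of an array (74.4 to 107.6 units) were set to it, which puts the floor at 6.49 on the log2 scale. A gene was called changed at a limma adjusted p under 0.05 together with a change of at least 2-fold. Between 10428 and 12326 probes were detected per array. The deleted receptors could be checked in part: Ifih1 (MDA5) was detected on 0 of 5 PRR-/- arrays and 8 of 8 WT arrays at 4 h, Tlr3 on 1 of 5 PRR-/- arrays and 8 of 8 WT arrays, and the Ifnar1 probe was detected on 0 of 36 arrays and so checks nothing. The antigen presentation genes of the sorted cells were high in every group, with group means of 15.53 to 15.73 for Cd74 and 14.39 to 14.64 for H2-Aa.

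Samples also resembled each other in ways the groups do not explain. At 4 h, 3 sets of similar samples were seen, each with samples of all 3 treated groups and of the unstimulated group. Unstimulated replicates 6 to 9 fell outside them when the samples were cut into 4 clusters, the division used here. With the planned 3 clusters they fell in set A. Samples at 14 h were not part of this grouping and so belong to no set. Set A held replicates 1 and 2 of the unstimulated group and of each group at 4 h. Set B held replicates 3 and 4 of the unstimulated, PRR-/- and IFNAR-/- groups and WT replicates 3 to 6. Set C held replicate 5 of the unstimulated, PRR-/- and IFNAR-/- groups and WT replicates 7 and 8. These sets were taken from the values and have no label, so the differences are given within them as well. Sets A and C hold 1 unstimulated sample each. With the sets as a block in the fit, a choice made after seeing the data, differences between 14 h and unstimulated DCs rest on unstimulated replicates 6 to 9. Those replicates and the 14 h samples form a block of their own there, without any 4 h sample. Differences between 14 h and 4 h are therefore indirect in that fit and also carry differences among the unstimulated replicates.

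Cd8b1 gave the largest differences among the 9 genes. It encodes the β chain of CD8, which pairs with CD8α on T cells, whereas the CD8 of mouse DCs is mostly a pair of α chains. WT DCs at 14 h had log2 levels of 11.66, 11.89 and 12.31 (lowest, median and highest of 6), against 7.12, 7.83 and 8.30 in 8 unstimulated samples. The difference was 4.19 ± 0.23 (SE, 18.3-fold, adjusted p = 3.09e-14). At 4 h, WT DCs had 8.86, 9.32 and 10.08 (lowest, median and highest of 8), which was 1.66 ± 0.22 above unstimulated DCs (adjusted p = 2.76e-07). Neither WT group overlapped the unstimulated samples, and WT DCs at 14 h lay 2.54 ± 0.23 above those at 4 h (adjusted p = 7.34e-10). In the probe's own signal units the 6 WT arrays at 14 h read 3357.2 to 4752.2, and the 9 unstimulated arrays read 185.6 to 353.4.

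No rise of Cd8b1 was seen in IFNAR-/- DCs. IFNAR-/- DCs at 14 h had log2 levels of 6.63, 6.99 and 6.61, close to the floor, against 11.66 to 12.31 in WT DCs at 14 h, a difference of -5.20 ± 0.30 (36.7-fold lower, adjusted p = 1.33e-13). At 4 h they had 6.85, 7.22, 7.09 and 6.75, against 8.86 to 10.08 in WT DCs, a difference of -2.43 ± 0.26 (5.38-fold lower, adjusted p = 2.96e-08). The gap was larger at 14 h than at 4 h (difference between the times -2.77 ± 0.40, adjusted p = 9.87e-06). IFNAR-/- DCs were also lower than unstimulated DCs, with differences of -1.003 ± 0.29 at 14 h (adjusted p = 0.0237) and -0.77 ± 0.26 at 4 h (adjusted p = 0.0415), the second under the 2-fold limit. The 4 h difference was past 2-fold with the replicate number as a block (-1.04, adjusted p = 0.00544), with the sets as a block (-1.26, adjusted p = 2.62e-05) and with the neqc background correction (-1.14, adjusted p = 0.00992). The 14 h call was just past 2-fold and was lost with the sets as a block (-0.51, adjusted p = 0.0789), with the mean of probes (-0.50, adjusted p = 0.0839) and in a limma fit on the compared groups alone (adjusted p = 0.0831). It was also lost when unstimulated sample 1-2, 3, 4 or 5 or IFNAR-/- sample 1 or 3 was left out (difference -1.13 to -0.92 over all samples left out in turn).

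No such difference was called in PRR-/- DCs. Their log2 levels of Cd8b1 at 4 h were 8.71, 10.07, 9.20 and 8.77, within the WT range apart from the 2 lowest, and they differed from WT DCs by -0.22 (95% interval -0.76 to 0.32, adjusted p = 1). Against unstimulated DCs they were higher by 1.44 ± 0.26 (adjusted p = 7.25e-05), with no overlap. Set A and set C gave smaller rises than set B. The WT difference was 0.73 in set A, 1.62 in set B and 0.71 in set C, and the PRR-/- difference was 0.43, 1.45 and 0.48. With the sets as a block, the PRR-/- rise was 0.95 (adjusted p = 0.00026), just under 2-fold.

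A second Cd8b1 probe gave the same order at 14 h. It was above background on 6 of 6 WT arrays at 14 h, with signals of 251.8 to 644.4, and on 0 of 3 IFNAR-/- arrays and 0 of 9 unstimulated arrays. WT DCs at 14 h were at least 4.16-fold higher than unstimulated DCs by this probe (adjusted p = 1.48e-12), and IFNAR-/- DCs at 14 h were at least 4.16-fold lower than WT DCs (adjusted p = 1.12e-09). These bounds set the samples below background at the floor. At 4 h it was above background on 3 of 8 WT arrays, 2 of 5 PRR-/- arrays and 0 of 5 IFNAR-/- arrays. For Cd8a, which pairs with Cd8b1 in T cells, the probe read 44.4 to 78.5 over all arrays and was detected on none. Its message could therefore not be followed at this sensitivity.

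Cd8b1 is also expressed by CD8+ T cells, and T cell markers were counted beside it. Against unstimulated DCs, 11% of all genes were called in WT DCs at 14 h. Of 14 T cell markers, 11 were measured, and 1 of them rose in WT DCs at 14 h against unstimulated DCs, Cd27 (1.36, adjusted p = 4.2e-06), a costimulatory receptor that NK cells carry too. The summed normalized signal of the 11 was 1121 to 1942 in WT DCs at 14 h and 1021 to 1132 in unstimulated DCs, and in IFNAR-/- DCs at 14 h it was 1080 to 1401. The CD3 chains that define T cells were near the floor, with Cd3d detected on 11 arrays of 36 and Cd3e and Cd3g on 3 each. Cd3d averaged 6.54 and Cd3e 6.52 in WT DCs at 14 h. Not called, but with higher means there than in unstimulated DCs, were Thy1 (7.36 against 6.57), Cd2 (6.81 against 6.49) and Lat (6.8 against 6.49). The means of Cd5 (6.95 against 7.14) and Cd6 (6.73 against 6.8) were lower. Of 12 NK cell markers, 6 were measured, and 2 rose in WT DCs at 14 h against unstimulated DCs, Ccl5 (2.51) and Nkg7 (2.29), with summed signals of 25878 to 55942 in WT DCs and 3954 to 15337 in unstimulated DCs. Ccl5 had the highest mean of the 6 (15.22 against 12.71) and weighs most in these sums. Not called were Prf1 (means 10.59 against 10.4), Klre1 (8.29 against 7.32), Klrb1c (6.91 against 6.5) and Il2rb (6.64 against 6.5). Ncr1, Gzmb and Itga2 were detected on 0 of 36 arrays, Gzma on 1 and Eomes on 2. At 4 h 7.19% of all genes were called against unstimulated DCs in WT, 7.28% in PRR-/- and 2.96% in IFNAR-/- DCs. None of the 11 T cell markers was called in WT DCs at 4 h, and Ccl5 was higher in WT (2.03) and PRR-/- DCs (1.82). Ccl5 was lower in IFNAR-/- than in WT DCs at both times (-1.46 at 4 h and -1.10 at 14 h). It was higher in IFNAR-/- DCs at 14 h than in unstimulated DCs (1.41, adjusted p = 0.00958). Of the 7 measured plasmacytoid DC markers Bst2 (2.34) and Spib (1.95) rose in WT DCs at 14 h against unstimulated DCs, and no other was called. The means of Siglech (7.35 against 7.92), Tcf4 (10.16 against 10.85) and Pacsin1 (6.91 against 7.04) were lower. Those of Cox6a2 (7.15 against 6.49) and Ptprs (10.7 against 10.43) were higher. In the same comparison 0 of 6 measured B cell markers were called. Of 4 measured erythroid markers the globin gene Hba-a1 was higher at 4 h than in unstimulated DCs, by 2.39 in WT, 2.26 in PRR-/- and 1.69 in IFNAR-/- DCs. The part of these cells in the Cd8b1 differences was not tested.

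**Figure D1:**
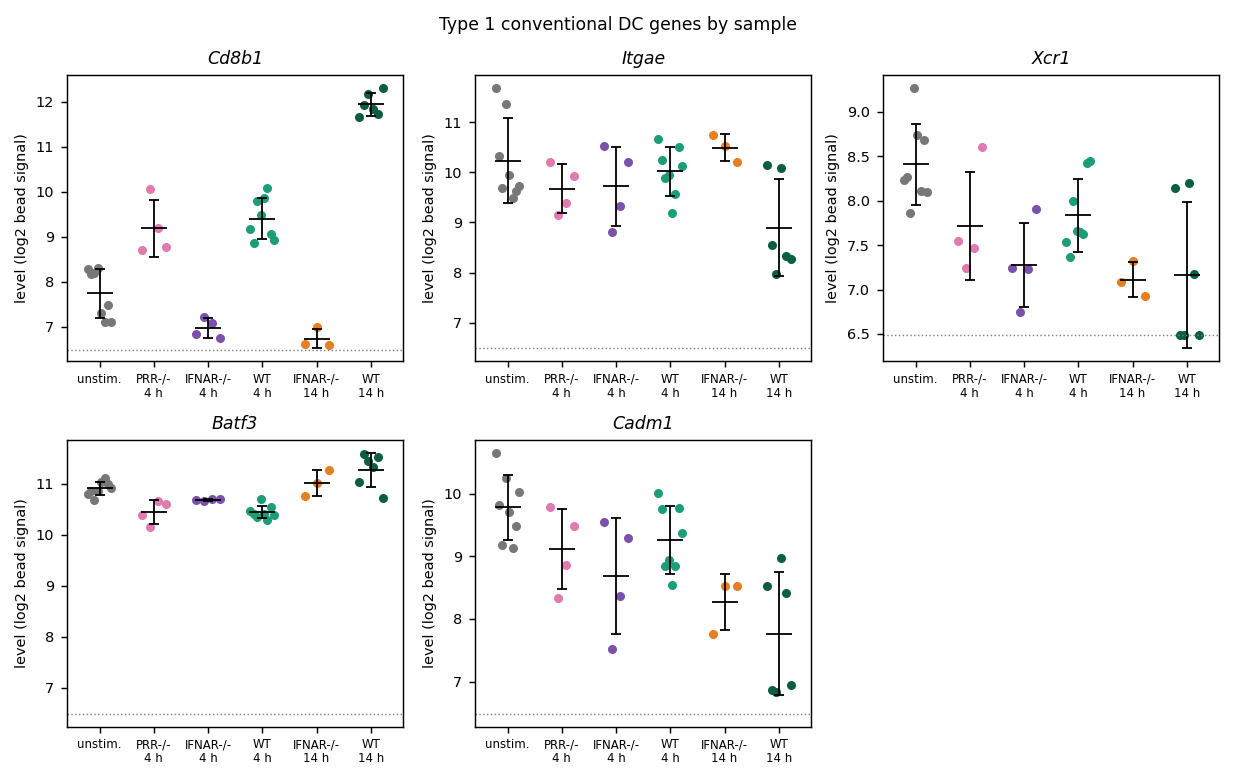
Log2 levels of the 5 measured type 1 genes in each of 33 samples, by group (points), with mean ± SD (bar) and the floor at 6.49 (dotted line). Cd8b1 lies at 11.66 to 12.31 in WT DCs at 14 h and at 6.61 to 6.99 in IFNAR-/- DCs at 14 h, and Cadm1 and Xcr1 have their lowest samples in WT DCs at 14 h.

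The other surface molecules of type 1 cDCs went the opposite way in WT DCs. Cadm1, Itgae and Xcr1 all fell at 14 h, by 4.05-fold, 2.53-fold and 2.36-fold, while Batf3 was 1.29-fold higher. The Itgae fall was under 2-fold in some other fits, as given below. With Cd8b1 and Esam, 5 of the 9 genes were called in WT DCs at 14 h, against 11% of all genes tested, and 8 of the 9 passed the adjusted p alone, against 47.3% of all genes. The median difference of the 5 type 1 genes was -1.24, and that of all genes was -0.01.

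Cadm1, an adhesion molecule that serves as a type 1 cDC marker across species, had log2 levels of 8.53, 6.87, 6.83, 8.97, 8.42 and 6.94 in WT DCs at 14 h, against 9.13, 9.76 and 10.65 (lowest, median and highest of 8) in unstimulated DCs. The groups did not overlap, and the difference was -2.02 ± 0.37 (adjusted p = 3.68e-05). The 6 WT samples fell into a higher and a lower trio. In IFNAR-/- DCs at 14 h the levels were 7.76, 8.52 and 8.53, also with no overlap with unstimulated DCs (-1.51 ± 0.46, adjusted p = 0.0308). That call was lost without any of the 3 IFNAR-/- samples (-1.25, -1.63 and -1.64) and without unstimulated sample 1-2 (-1.38). IFNAR-/- and WT DCs at 14 h differed by 0.51, with a 95% interval of -0.47 to 1.49, which holds 0 as well as differences over 2-fold. At 4 h the differences from unstimulated DCs were -0.52 in WT DCs (adjusted p = 0.219), -0.66 in PRR-/- DCs (adjusted p = 0.225) and -1.10 in IFNAR-/- DCs (adjusted p = 0.0659), none of them called. The last of these was -1.39 without IFNAR-/- sample 1-2 (adjusted p = 0.0298) and -1.29 with the sets as a block (adjusted p = 0.0121).

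Xcr1, the receptor for the chemokine Xcl1 made by NK cells and CD8+ T cells, had log2 levels of 8.14, 6.49, 6.49, 8.20, 7.17 and 6.49 in WT DCs at 14 h, against 7.86 to 9.27 in unstimulated DCs. It was below detection on 3 of the 6 WT arrays at 14 h and detected on every array of the other groups, so the fall of -1.24 ± 0.28 (adjusted p = 0.000577) rests in part on samples at the floor. WT replicates 1 and 4 stayed within the unstimulated range. In IFNAR-/- DCs at 14 h the levels were 7.08, 7.32 and 6.93, all below the lowest unstimulated sample (-1.30 ± 0.36, adjusted p = 0.0162). The call was lost without IFNAR-/- replicate 1 (-1.28, adjusted p = 0.0732) or replicate 3 (-1.21, adjusted p = 0.0914). All 3 lay within the WT range at 14 h, and since 3 of the 6 WT samples give only an upper bound, no size is given for the difference between these groups.

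At 4 h Xcr1 was the only one of the 9 genes called in IFNAR-/- DCs against unstimulated DCs, a comparison in which 2.96% of all genes were called. The 4 IFNAR-/- levels were 7.24, 6.75, 7.23 and 7.90, against 7.86 to 9.27 in unstimulated DCs, and the difference was -1.12 ± 0.32 (adjusted p = 0.0134). It was lost without IFNAR-/- replicate 3 (-0.95, adjusted p = 0.0748) and was -0.99, -1.07 and -1.37 within sets A, B and C. The differences of -0.57 in WT DCs (adjusted p = 0.0756) and -0.69 in PRR-/- DCs (adjusted p = 0.0933) did not pass.

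Itgae encodes CD103, the α chain of the integrin that binds E-cadherin. In WT DCs at 14 h its log2 levels were 10.14, 8.55, 7.98, 10.09, 8.32 and 8.27, against 9.49 to 11.69 in unstimulated DCs, a difference of -1.34 ± 0.38 (adjusted p = 0.00413). The same 2 WT samples that were high in Xcr1, replicates 1 and 4, lay within the unstimulated range, and the other 4 lay below it. IFNAR-/- DCs at 14 h had 10.75, 10.52 and 10.21, above every WT sample at 14 h (1.60 ± 0.50, adjusted p = 0.0126) and 0.26 from unstimulated DCs (adjusted p = 0.884). Itgae was the only one of the type 1 genes called higher in IFNAR-/- than in WT DCs at 14 h. The call was lost without IFNAR-/- replicate 1 (1.47, adjusted p = 0.0621) and in a limma fit on these 2 groups alone (adjusted p = 0.0771).

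Itgae had 5 probes that passed the detection filter, which allowed a check within the gene. All 5 were lower in WT DCs at 14 h than in unstimulated DCs, with differences of -0.49 to -1.45 and adjusted p of 0.00146 to 0.0493 over all probes. All 5 were higher in IFNAR-/- than in WT DCs at 14 h, by 0.67 to 1.60, and 4 of them passed (adjusted p = 0.0101 to 0.0703 over the 5). At 4 h no difference of Itgae from unstimulated DCs was called (-0.22 in WT, -0.57 in PRR-/- and -0.51 in IFNAR-/- DCs). Within the sets the 4 h differences were larger in A and C than in B: -1.24, -0.36 and -1.04 in WT DCs, and -1.48, -0.74 and -1.44 in PRR-/- DCs. With the sets as a block, the differences at 4 h reached -1.10 in PRR-/- DCs (adjusted p = 0.0144) and -1.05 in IFNAR-/- DCs (adjusted p = 0.0369). The 14 h fall in WT DCs shrank to -0.81 in that fit (adjusted p = 0.0376), under 2-fold, so its call was lost. It was also lost with the mean of probes (-0.89, adjusted p = 0.00424).

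Batf3, the transcription factor on which type 1 cDCs depend, differed by less than 2-fold in every comparison below, with little spread between samples. WT DCs at 4 h had log2 levels of 10.30, 10.42 and 10.70 (lowest, median and highest), against 10.68, 10.90 and 11.12 in unstimulated DCs, a difference of -0.46 ± 0.10 (adjusted p = 0.000302). PRR-/- DCs at 4 h had 10.39, 10.15, 10.66 and 10.60, all below the unstimulated samples (-0.46, adjusted p = 0.00325). IFNAR-/- DCs at 4 h had 10.69, 10.66, 10.71 and 10.70 and differed by -0.22 (adjusted p = 0.247). By 14 h the direction had turned in WT DCs. Their levels were 11.03, 11.59, 11.45, 11.33, 11.53 and 10.72, above unstimulated DCs by 0.36 ± 0.11 (adjusted p = 0.00581) and all above the WT samples at 4 h, a difference of 0.83 ± 0.11 (1.77-fold, adjusted p = 4.02e-07). None of these reached 2-fold. IFNAR-/- DCs at 14 h had 10.77, 11.01 and 11.28, not separated from WT DCs (-0.26, adjusted p = 0.175).

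Among the type 2 genes, Esam gave the clearest difference. It encodes an adhesion molecule of endothelial cells and platelets that also marks the Notch2-dependent cDCs of the spleen. WT DCs at 14 h had log2 levels of 12.78, 12.54, 12.55, 12.27, 12.31 and 12.82, against 10.74, 11.35 and 11.90 (lowest, median and highest) in unstimulated DCs. The groups did not overlap, and Esam rose by 1.21 ± 0.15 (2.31-fold, adjusted p = 2.1e-07). IFNAR-/- DCs at 14 h had 11.12, 11.55 and 10.98, all below the WT samples, a difference of -1.33 ± 0.20 (2.52-fold lower, adjusted p = 7.23e-06) and of -0.12 from unstimulated DCs (adjusted p = 0.845). At 4 h the IFNAR-/- levels were 11.46, 11.64, 11.87 and 11.67, within the WT range of 11.19 to 11.88, and the difference of the IFNAR effect between the times was -1.46 ± 0.27 (adjusted p = 0.000213). The rise at 14 h was 0.98 with the sets as a block (adjusted p = 1.92e-07), just under 2-fold.

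Dtx1, an E3 ubiquitin ligase of the Deltex family and Notch target, was highest at 4 h. WT DCs at 4 h had log2 levels of 9.55, 10.34 and 10.91 (lowest, median and highest), against 8.21, 9.68 and 10.24 in unstimulated DCs, a difference of 0.81 ± 0.25 (1.75-fold, adjusted p = 0.00846). It was larger within the sets, 1.37, 1.10 and 1.24 in sets A, B and C, and the fit with the sets as a block gave 1.20 (adjusted p = 1.55e-07). PRR-/- DCs at 4 h had 9.39, 10.31, 10.78 and 10.06, with differences from unstimulated DCs of 0.63 overall (adjusted p = 0.107), 1.18, 0.88 and 1.17 within the sets and 1.03 with the block (adjusted p = 1.83e-05). In IFNAR-/- DCs at 4 h the levels were 9.16, 9.70, 10.09 and 9.83 and the difference was 0.19 (adjusted p = 0.796). The gap between IFNAR-/- and WT DCs at 4 h, -0.62, did not pass (adjusted p = 0.147).

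At 14 h Dtx1 in WT DCs lay within the unstimulated range but for 1 sample, with 10.28, 9.86, 9.72, 9.56, 9.76 and 9.67 (0.30, adjusted p = 0.4). IFNAR-/- DCs at 14 h had 8.35, 9.01 and 8.33, below every WT sample at 14 h (-1.24 ± 0.35, adjusted p = 0.00647). Against unstimulated DCs the difference was -0.94 (adjusted p = 0.0739), and with the sets as a block it was -1.34 (adjusted p = 3.83e-06). It also passed without unstimulated sample 1-2 (-1.13, adjusted p = 0.0137) or replicate 5 (-1.03, adjusted p = 0.0489).

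**Figure D2:**
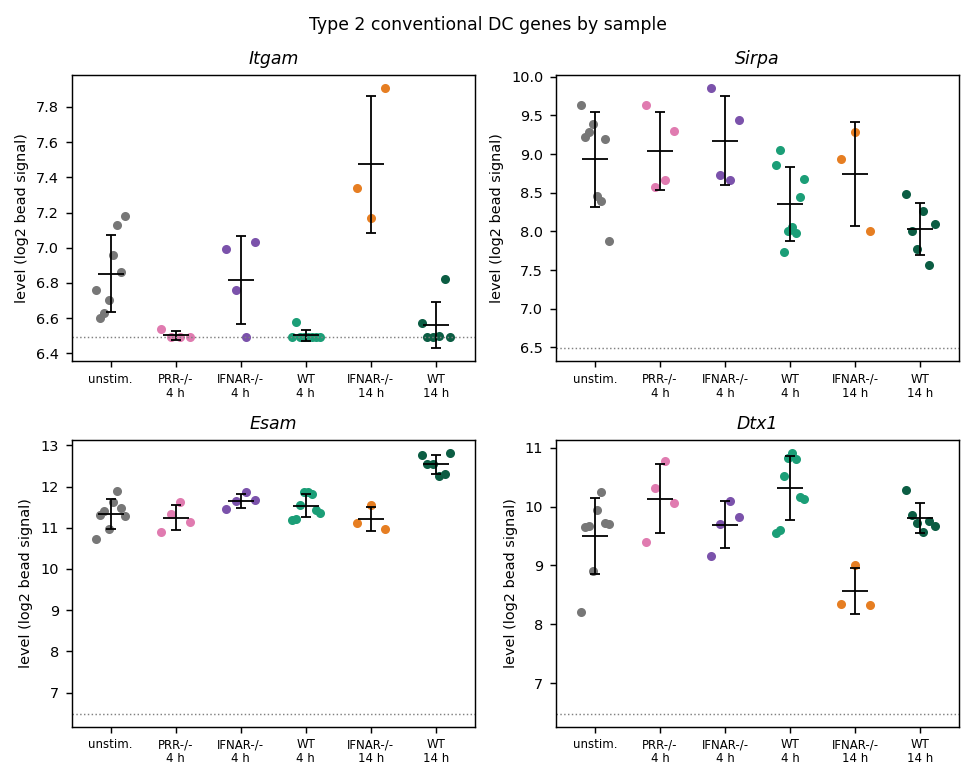
Log2 levels of the 4 type 2 genes in each of 33 samples, by group (points), with mean ± SD (bar) and the floor at 6.49 (dotted line). Esam lies at 12.27 to 12.82 in WT DCs at 14 h, above all other groups, and Itgam lies at or near the floor in WT DCs at both times.

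Sirpa encodes SIRPα, the receptor for CD47 that is used to gate type 2 cDCs. Its log2 levels were 7.57, 8.04 and 8.49 (lowest, median and highest of 6) in WT DCs at 14 h, against 7.87, 9.21 and 9.64 in unstimulated DCs, a difference of -0.90 ± 0.28 (1.87-fold, adjusted p = 0.00779), which was -1.05 without unstimulated replicate 9 and so past 2-fold. WT DCs at 4 h had 7.74, 8.25 and 9.05 and differed by -0.58 (adjusted p = 0.0638). The unstimulated range was wide, and within the sets the 4 h difference was -0.68, -1.31 and -0.83, with -1.03 in the fit with the block (adjusted p = 0.000133). The knockout groups did not differ from unstimulated DCs past the test: PRR-/- DCs had 9.63, 8.58, 8.67 and 9.30 at 4 h (0.11, adjusted p = 0.847), and IFNAR-/- DCs had 9.86, 8.73, 8.66 and 9.44 at 4 h (0.24, adjusted p = 0.723) and 8.94, 9.29 and 8.00 at 14 h (-0.19, adjusted p = 0.88).

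The mean Sirpa levels of the knockout DCs lay above those of WT DCs at the same time, but the differences did not pass the test. The difference was 0.69 in PRR-/- DCs at 4 h (adjusted p = 0.93, unadjusted p = 0.0352), 0.82 in IFNAR-/- DCs at 4 h (adjusted p = 0.0528) and 0.71 in IFNAR-/- DCs at 14 h (adjusted p = 0.141), and the last was 1.08 without IFNAR-/- replicate 3 (adjusted p = 0.0415). The 4 h comparisons share their WT samples. Within sets A, B and C the 4 h values were 0.67, 0.68 and 0.74 for PRR-/- and 0.91, 0.75 and 0.88 for IFNAR-/- DCs. No gene of the 9 was called between PRR-/- and WT DCs, where 0.302% of all genes were called, and Sirpa was the only one with an unadjusted p under 0.05. In the same comparison 3 of 13 measured red pulp macrophage markers were higher in PRR-/- DCs, C1qc (1.34), Hmox1 (1.28) and Spic (1.10), with sums of 13519 to 21130 in PRR-/- DCs and 7143 to 14396 in WT DCs at 4 h. Their part in the Sirpa difference was not tested.

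Itgam encodes CD11b, the α chain of the complement receptor found on type 2 cDCs and on monocytes, macrophages and neutrophils. Its probe was dim. It was detected on 1 of 8 WT arrays and 1 of 5 PRR-/- arrays at 4 h, on 3 of 6 WT arrays at 14 h, on 4 of 5 IFNAR-/- arrays at 4 h, on 3 of 3 IFNAR-/- arrays at 14 h and on 9 of 9 unstimulated arrays. The log2 levels of IFNAR-/- DCs at 14 h were 7.34, 7.17 and 7.91, above the 6.49 to 6.82 of WT DCs at 14 h with no overlap (0.91 ± 0.13, 1.88-fold, adjusted p = 2.51e-06). They were also above unstimulated DCs, at 6.60 to 7.18, by 0.62 ± 0.12 (adjusted p = 0.000769), with 1 sample inside the unstimulated range. WT DCs at 4 h were at 6.49 to 6.58 and differed from unstimulated DCs by -0.35 (adjusted p = 0.00224), as did PRR-/- DCs at 4 h by -0.35 (adjusted p = 0.0146) and WT DCs at 14 h by -0.29 (adjusted p = 0.0153). Samples at the floor shorten these differences. With another background correction (neqc) that uses no floor, the excess in IFNAR-/- over WT DCs at 14 h was 1.82 (adjusted p = 7e-06).

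Markers of other myeloid cells moved in the same samples as Itgam. Between IFNAR-/- and WT DCs at 14 h 9.63% of all genes were called. Of 9 measured monocyte markers (11 in the list), 6 were called higher and 0 lower in IFNAR-/- than in WT DCs at 14 h, among them Lyz2 (4.65), Cd14 (3.65), Fcgr4 (2.13) and Chil3 (2.08). Their summed signal was 48996 to 54450 in IFNAR-/- DCs and 8038 to 21407 in WT DCs at 14 h, with 20615 to 31274 in unstimulated DCs. Of 13 measured red pulp macrophage markers 7 were called higher and 0 lower, led by C1qb (3.88). Their sums were 11098 to 15369 in IFNAR-/- and 8094 to 13891 in WT DCs at 14 h. The means of Axl (10.09 against 11.2), Spic (11.22 against 11.71) and Vcam1 (8.84 against 9.08) were lower in IFNAR-/- DCs, without a call. Of 9 measured neutrophil markers 4 were called higher, among them S100a8 (2.94), with sums of 3366 to 13654 and 947 to 3232 in the same order. The sort took CD11c-high cells, a gate that most neutrophils, monocytes and red pulp macrophages do not meet, and its exclusion by CD3, DX5 and B220 was not directed at them. Their part in the Itgam, Itgae and other differences between IFNAR-/- and WT DCs at 14 h was not tested.

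**Figure D3:**
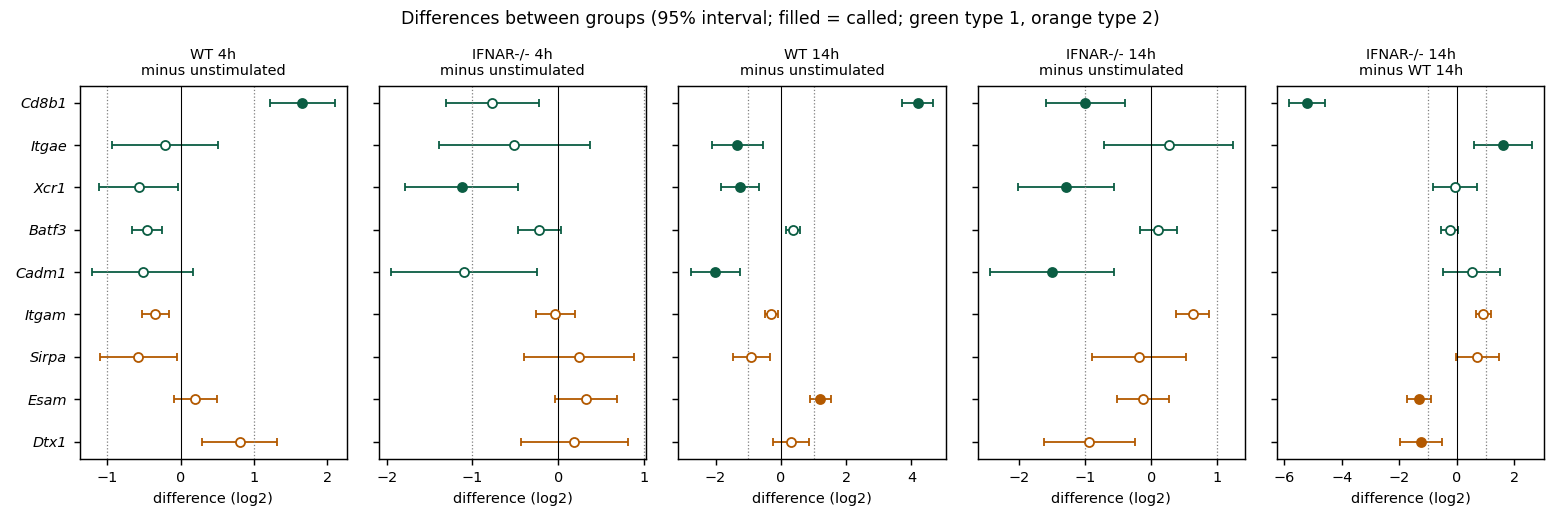
Differences (log2) of the 9 measured genes with 95% intervals in the comparisons named above each panel, type 1 genes in green and type 2 genes in orange. Filled points were called (adjusted p under 0.05 and at least 2-fold), and Cd8b1 reaches 4.19 in WT DCs at 14 h and -5.20 between IFNAR-/- and WT DCs at 14 h.

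Set side by side, the type 1 and type 2 genes did not move as blocks. In WT DCs at 4 h 1 of the 9 genes was called, Cd8b1, with 7.19% of all genes called, and in PRR-/- DCs at 4 h it was again 1, with 7.28%. Against WT DCs at 4 h, 1 gene was called in IFNAR-/- DCs, again Cd8b1, with 4.62% of all genes. Between IFNAR-/- and WT DCs at 14 h 4 were called, with 9.63% of all genes: Itgae higher and Cd8b1, Esam and Dtx1 lower. Against unstimulated DCs, 3 type 1 genes and no type 2 gene were called lower in IFNAR-/- DCs at 14 h, with 2.48% of all genes called and 0.802% called lower. These 3 (Cd8b1, Xcr1 and Cadm1) rested on 3 samples, and no call was left without IFNAR-/- replicate 1 or without replicate 3 in turn. From 4 h to 14 h, 4 of the 9 changed in WT DCs (Cd8b1 and Esam higher, Itgae and Cadm1 lower, with 6.33% of all genes) and none in IFNAR-/- DCs (1.96% of all genes), where Itgam alone passed the adjusted p, as 7.58% of all genes did (0.65, adjusted p = 0.00238). The WT calls of Esam (1.01) and Itgae (-1.13) were near the limit, and without WT replicate 6 at 14 h they were 0.95 and -1.002 (adjusted p = 0.0511 for Itgae), which left 2 calls. With the sets as a block, 14 h and 4 h are compared only through unstimulated samples of different blocks. The differences were then 0.54 for Esam, -0.057 for Itgae (adjusted p = 0.947) and -1.12 for Cadm1 (adjusted p = 0.0699). Dtx1 was called lower in that fit (-1.29, adjusted p = 3.68e-05, against -0.50, adjusted p = 0.147). In IFNAR-/- DCs Dtx1 differed by -1.13 between 14 h and 4 h with no overlap (adjusted p = 0.0692). In the same indirect fit with the sets as a block, Dtx1 (-1.92, adjusted p = 4.21e-06) and Itgae (1.84, adjusted p = 0.0245) were called between these IFNAR-/- groups. With neqc, Dtx1 (-1.25, adjusted p = 0.0472) and Itgam (1.13, adjusted p = 0.0176) were called. The difference of the IFNAR effect between the times was called for 3 genes, Cd8b1, Esam and Itgae (1.90, adjusted p = 0.0441), with 7.02% of all genes called. For Itgae that call was lost in 15 of 21 fits that left out 1 sample (1.59 to 2.17 over all 21).

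The order of group means gives the same picture gene by gene. For Cd8b1 it ran, from high to low, WT at 14 h, WT at 4 h, PRR-/- at 4 h, unstimulated, IFNAR-/- at 4 h and IFNAR-/- at 14 h, where WT and PRR-/- at 4 h, and likewise the 2 IFNAR-/- groups, did not differ past the test. For Xcr1 and Cadm1 unstimulated DCs had the highest mean, followed by WT, PRR-/- and IFNAR-/- DCs at 4 h and then the groups at 14 h, and none of the neighbours that were compared were called apart. For Esam WT DCs at 14 h stood above the rest, whose means lay between 11.21 and 11.66. For Dtx1 the order was WT and PRR-/- at 4 h, WT at 14 h, IFNAR-/- at 4 h, unstimulated and IFNAR-/- at 14 h. Itgae was highest in IFNAR-/- DCs at 14 h and lowest in WT DCs at 14 h, with the other groups between 9.67 and 10.23. Batf3 was highest in WT DCs at 14 h and lowest in WT and PRR-/- DCs at 4 h, both at 10.45. Itgam was highest in IFNAR-/- DCs at 14 h, followed by unstimulated and IFNAR-/- DCs at 4 h, and Sirpa was highest in IFNAR-/- and PRR-/- DCs at 4 h and lowest in WT DCs at 14 h.

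**Figure D4:**
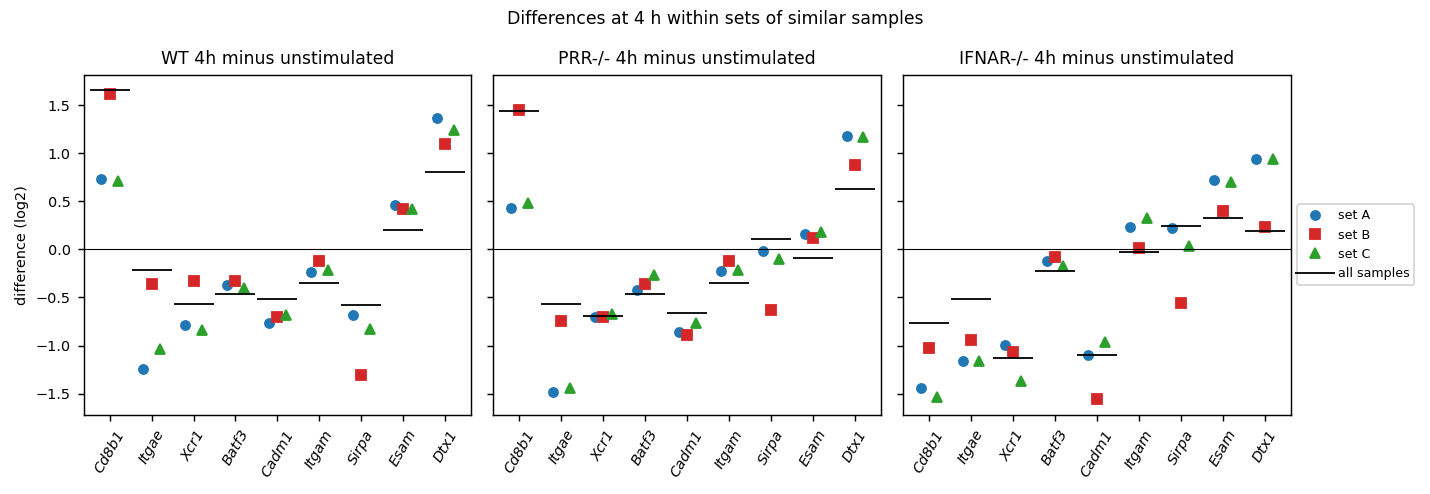
Differences (log2) from unstimulated DCs at 4 h within sets A, B and C of similar samples (symbols) and over all samples (line), for WT, PRR-/- and IFNAR-/- DCs. Dtx1 in WT DCs is 1.37, 1.10 and 1.24 within the sets and 0.81 over all samples, and Itgae in WT DCs is -1.24, -0.36 and -1.04 within the sets and -0.22 over all samples.

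Other genes of the 2 cDC types were followed through 2 lists. Of 26 further type 1 cDC genes 22 were measured. In WT DCs at 14 h 2 rose and 6 fell against unstimulated DCs, with a list median of -0.39, where 11% of all genes were called. The largest falls were those of Ppt1, a lysosomal thioesterase (-2.57 ± 0.41, adjusted p = 6.56e-06), Cd207, the C-type lectin langerin (-2.11 ± 0.34, adjusted p = 8.16e-06), Rab7b, a small GTPase of late endosomes (-2.02 ± 0.33, adjusted p = 8.67e-06), and Snx22, a sorting nexin (-1.73 ± 0.21, adjusted p = 1.04e-07). Id2, a transcriptional regulator that type 1 cDCs require (1.18), and Ly75, the endocytic receptor DEC-205 (1.10), rose. In IFNAR-/- DCs at 14 h 0 rose and 5 fell against unstimulated DCs (median -0.48, with 2.48% of all genes called), among them Cd207 (-2.16), Ppt1 (-1.66), Tlr11 (-1.42) and Snx22 (-1.37). Between IFNAR-/- and WT DCs at 14 h 2 of the 22 were called, both lower, Ly75 (-1.48) and Gpr33 (-1.45), which is near the 9.63% of all genes called.

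At 4 h the further type 1 genes were divided. In WT DCs 4 rose and 2 fell against unstimulated DCs, with 7.19% of all genes called. Ifi205, an IFN-inducible gene (2.97), Gpr33, an orphan receptor (2.55), Ly75 (1.86) and Nfil3, a transcription factor (1.18), were higher, and Cd207 (-1.51) and the chemokine receptor Cxcr3 (-1.03) were lower. IFNAR-/- DCs had 3 higher and 5 lower (2.96% of all genes called), with Ly75 at 1.90, Rab7b at -1.49, Cxcr3 at -1.48 and Irf8, the other transcription factor of type 1 cDCs, at -1.39 ± 0.35 (adjusted p = 0.00495). PRR-/- DCs had 5 higher and 3 lower (7.28% of all genes called). Against WT DCs, IFNAR-/- DCs at 4 h had 2 of the 22 lower, Gpr33 (-2.43) and Ifi205 (-2.11), with 4.62% of all genes called.

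Of 28 further type 2 cDC genes 24 were measured. In WT DCs at 14 h 1 rose and 7 fell, with a median of -0.19 and 11% of all genes called. Relb, an NF-κB subunit (1.93 ± 0.20, adjusted p = 5.28e-09), rose, and the lectin receptors Cd209a (-2.65 ± 0.24, adjusted p = 5.55e-10), Clec10a (-1.38) and Clec4a3 (-1.36) fell. The Notch target Hes1 also fell (-1.24, adjusted p = 1.51e-05). In IFNAR-/- DCs at 14 h 1 rose, Emilin2 (1.23), and 2 fell, Cd209a (-2.90) and Hes1 (-1.27), with 2.48% of all genes called. Between IFNAR-/- and WT DCs at 14 h Emilin2 (2.27) and Clec4a3 (2.17) were higher and Relb (-1.48) was lower, with 9.63% of all genes called. At 4 h WT DCs had 1 higher, Relb (1.01), and 2 lower, Cd209a (-1.69) and Klf4 (-1.03), with 7.19% of all genes called. PRR-/- DCs had 1 higher, Csf3r (1.22), and 1 lower, Cd209a (-1.67), with 7.28% of all genes called. IFNAR-/- DCs had 0 higher and 2 lower, Hes1 (-1.63) and Cd209a (-1.56), with 2.96% of all genes called. These comparisons share their unstimulated samples. Against WT DCs, IFNAR-/- DCs at 4 h had 1 higher, Tmem176a (1.12), and 0 lower, with 4.62% of all genes called. Of 10 measured pan-cDC genes 2 were lower in WT DCs at 14 h, Bcl11a (-1.99) and Ciita (-1.18), and Itgax and Zbtb46 were detected on all 36 arrays. These lists were made with earlier results of these data known and serve as description.

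Whether genes of a type moved together between samples of the same group was asked over 36 pairs of genes. With group means removed, 14 pairs passed, 6 positive and 8 negative (permutation within groups, adjusted over the pairs). Among type 1 pairs 3 were positive and 2 negative, and among type 2 pairs 1 was positive and 1 negative. Between the types 2 were positive and 5 negative, so passing pairs were not confined to genes of 1 type. With the means of group and set removed, over 27 samples, 2 pairs were left. The 14 h samples belong to no set, so only their group means were removed. Among them Xcr1 was detected on only 3 of 6 WT arrays, and the undetected samples sit at the floor. Itgae and Xcr1, both type 1, had r = 0.873 (permutation p = 0.00101, adjusted 0.0182) and rho = 0.75 (permutation p = 0.0004, adjusted 0.0072), and r = 0.724 without the 2 samples farthest from the median of Itgae. Esam and Dtx1, both type 2, had r = 0.82 (permutation p = 0.00031, adjusted 0.0112) and rho = 0.852 (permutation p = 0.00022, adjusted 0.0072), and r = 0.744 without the 2 farthest. With group means alone removed, the same pairs had r = 0.611 and r = 0.922. After removal of group and set means, Xcr1 with Cadm1 (r = 0.815, adjusted p = 0.0502, permutation) narrowly missed the limit. So did Itgae with Cadm1 (r = 0.718, adjusted p = 0.0544, permutation). The type 2 pair Itgam and Sirpa, which went opposite ways, also narrowly missed it (r = -0.756, adjusted p = 0.0526, permutation). Sirpa and Esam, both type 2, did not pass either way, with r = -0.448 after removal of group means (adjusted p = 0.0528, permutation) and r = 0.47 after removal of group and set means (adjusted p = 0.355, permutation).

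**Figure D5:**
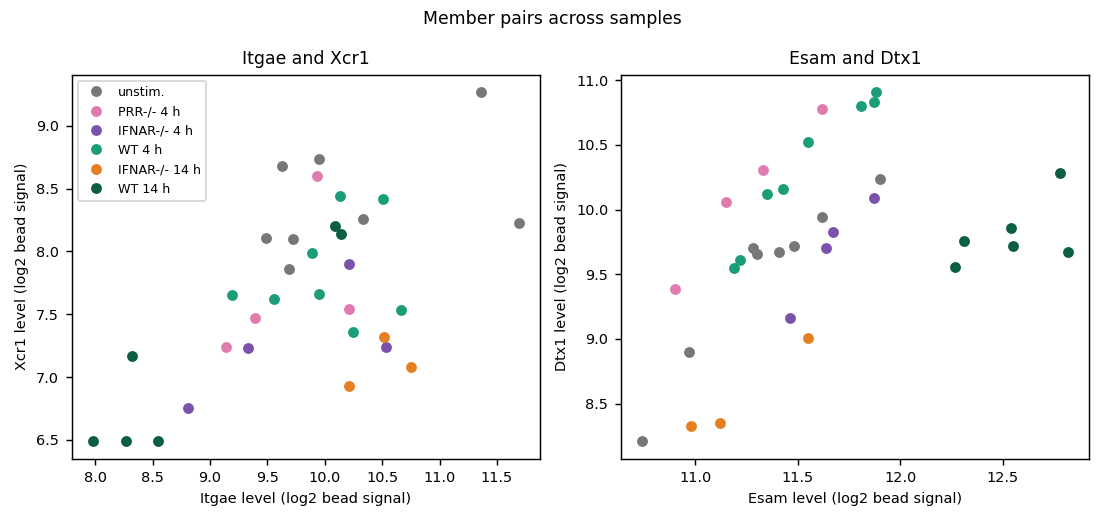
Log2 levels of Itgae and Xcr1 (left) and of Esam and Dtx1 (right) in each of 33 samples, coloured by group. Within groups the points rise together, with r = 0.611 (left) and r = 0.922 (right) after group means are removed, and WT DCs at 14 h stand apart to the right in Esam.

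The genes whose levels were most like each member over all 33 samples, with group differences kept, are given as description. Cd8b1 was most like Tspan17 (r = 0.942), Eps8l2 (0.923) and Agrn (0.921). Among the type 1 genes that fell, Cadm1 was most like Ppt1 (0.944), Slc9a9 (0.926) and Lpar6 (0.924), Xcr1 was most like Notch4 (0.884), Fgd6 (0.883) and Extl3 (0.862), and Itgae was most like Tnfrsf21 (0.851), Snx24 (0.839) and Mboat1 (0.828). Batf3 was most like Ccdc28b (0.911), Gpx4 (0.888) and Gnl2 (0.881). Among the type 2 genes, Esam was most like Atf7ip (0.929), Prr14 (0.906) and Dhx57 (0.904), Sirpa was most like Capzb (0.907), Tom1 (0.872) and Selenof (0.872), Dtx1 was most like Kynu (0.831), Tpx2 (0.793) and Crlf3 (0.79), and Itgam was most like Coprs (0.871), Sfxn5 (0.868) and Nup43 (0.851). No member had another member among its 3 nearest genes, and Ppt1, nearest to Cadm1, was the only one of these genes that stood in the list of further type 1 genes.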

How the data were processed

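Illumina mouseRef-8 v2.0 bead arrays (36) were read by the authors with BeadStudio (version not given in the sources used here). The deposited intensity of each probe is a bead-summary signal in linear units, and the deposited detection p-value tests it against negative control beads. The authors also deposited a log2 table made in GeneSpring 10.0, in which low signals were raised to the background, the arrays were quantile normalized and each probe was set to the median over samples; only 11.2% of probes have a median within 0.001 of 0, so its centring is approximate, and it served as an alternative. Columns were used only for samples the labels name, and 0 columns of other samples were present.

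From the signals, the lowest value with detection p under 0.05 on each array was set as its floor, log2 was taken and arrays were quantile normalized. Of 25697 probes, 14202 detected on at least 3 arrays were kept, and each gene took its probe with the highest mean. Gene names came from the platform annotation: 23978 probes had 1 symbol, 0 several and 1719 none. For 3 groups, 1 pair of arrays each (replicates 1 and 2 of the unstimulated, PRR-/- and IFNAR-/- 4 h groups) differed less than the other pairs of a group, with a median absolute difference of 0.0964 to 0.1066 against 0.1518 to 0.6979 in 99 other pairs, and each pair was averaged and counted as 1 sample (written sample 1-2), which gave 33 samples. Depth does not apply to arrays, and the number of samples limits the precision.

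Groups were compared in 1 limma fit (limma 3.58.1, R 4.3.3) over all samples with 11 contrasts, Benjamini-Hochberg adjustment over the 9606 genes tested, and a call at adjusted p under 0.05 with at least 2-fold. The fit and its call rule were tested on simulated data. Replicate numbers paired PRR-/- and IFNAR-/- DCs at 4 h with unstimulated DCs by the correlation of deviations of same-numbered samples (0.124 to 0.688 and 0.317 to 0.741), and no other groups. Correlations between genes used 100000 permutations within groups (Python 3.11.15, numpy 2.4.6, scipy 1.17.1). The alternatives were other background corrections, scaling, filters, probe rules, tests, blocks and the removal of single samples. The genes, and the lists of other cDC and cell type genes, were chosen with earlier results of these data known. From the lists, the text names the called genes, at most 4 per list and comparison by size of change, with Id2, Ly75, Nfil3, Cxcr3 and Hes1 in WT DCs added after their values were seen, and, for each measured gene of the 10, the 3 genes most correlated with it over the 33 samples. The markers Cd3e, Cd3g, Cd74, H2-Aa, Itgax and Zbtb46 and the targeted receptors are named as checks of the cells. Further T cell, NK cell, plasmacytoid DC and red pulp macrophage markers, not called or not measured, were added after their values were seen. Differences are ± SE and group means ± SD.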

Additional observations from a re-analysis of the deposited data

Results flagged for a closer look

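In 45 combinations of gene and group with 4 to 10 samples, 3 had a sample far from the others by Dixon's criterion, which chance gives in about 1 of 20. All 3 were Itgam in groups at or near the floor: WT replicate 2 at 4 h was at 6.58 with all others at 6.49, PRR-/- sample 1-2 at 4 h was at 6.54 with all others at 6.49, and WT replicate 5 at 14 h was at 6.82 with the others at 6.49 to 6.57. Each is a single array or pair just above the detection limit.

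Differences between genotypes under the same stimulation, by the limma test, stood out for Cd8b1 at 4 h (IFNAR-/- minus WT -2.43). At 14 h they stood out for Cd8b1 (-5.20), Itgae (1.60), Esam (-1.33) and Dtx1 (-1.24). The difference between IFNAR-/- and WT DCs itself differed between 14 h and 4 h for Cd8b1 (-2.77), Itgae (1.90) and Esam (-1.46).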

How the results depend on the processing

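Every alternative run kept the direction and call of 3 Cd8b1 differences: the rise by 14 h in WT cells and the gap between IFNAR-/- and WT cells at 4 h and at 14 h. Most counts of called genes stayed within 1.5 times their value under other settings, and the exceptions follow, the cause of which was not tested. Without the 2-fold limit the counts were 4 (WT 4 h), 3 (PRR-/- 4 h) and 2 (IFNAR-/- 4 h) against unstimulated DCs, 2 for IFNAR-/- against WT DCs at 4 h, 8 for WT at 14 h against unstimulated DCs and 1 for IFNAR-/- at 14 h against 4 h. With the 4 sets of similar samples as a block, added after seeing the data, they were 3, 2 and 4 for the same groups at 4 h against unstimulated DCs, 3 for WT at 14 h against unstimulated DCs, 2 for WT at 14 h against 4 h and 2 for IFNAR-/- at 14 h against 4 h. The planned block of 3 sets was used at 4 h only, since the 14 h samples were not grouped and shared no set with unstimulated or 4 h samples. The 4-set block compares 14 h with 4 h only through the unstimulated samples. With the mean of all probes of a gene, 0 were called in WT and in PRR-/- DCs at 4 h, where Cd8b1 changed by 0.86 and 0.75. With neqc, 2 were called in IFNAR-/- DCs at 4 h against unstimulated DCs and 2 in IFNAR-/- DCs at 14 h against 4 h.

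With the replicate block, 2 genes were called in IFNAR-/- DCs at 4 h against unstimulated DCs (Cd8b1 at -1.04, adjusted p = 0.00544, besides Xcr1); between groups whose numbers do not pair, it moved Sirpa in WT DCs at 14 h to -1.15 (called) and Xcr1 in IFNAR-/- DCs at 14 h to -1.01 (adjusted p = 0.0917), and it changed no other call. Leaving out 1 sample gave counts of 0 to 2 for IFNAR-/- at 4 h (0 without IFNAR-/- replicate 3, 2 without sample 1-2) and 0 to 3 for IFNAR-/- at 14 h against unstimulated DCs, 2 to 4 for WT at 14 h against 4 h, and 0 to 1 for IFNAR-/- at 14 h against 4 h (1 without IFNAR-/- sample 1-2 at 4 h).

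The type 1 median was -1.58 with neqc, -0.51 with the 4-set block and -0.50 with the mean of probes in IFNAR-/- DCs at 14 h against unstimulated DCs (-1.003), -1.25 with neqc and -0.057 with the 4-set block in WT DCs at 14 h against 4 h (-0.67), and 1.03 with neqc for the difference of the IFNAR effect between times (0.50). The type 2 median, over 4 genes, was 0.27 with median scaling and 0.13 with the 4-set block in WT DCs at 4 h (-0.07), -0.032 with median scaling and 0.43 with neqc for IFNAR-/- against WT DCs at 4 h (0.22), -0.23 with neqc and -0.27 with the 4-set block in WT DCs at 14 h against unstimulated DCs (0.01), and 0.12 with the 4-set block in WT DCs at 14 h against 4 h (-0.13). Leaving out 1 sample moved type 2 medians to -0.38 to 0.087 (IFNAR-/- at 14 h against unstimulated), -0.52 to -0.17 (against WT at 14 h), -0.66 to -0.20 (against 4 h) and -0.62 to -0.12 (difference between times).

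With arrays scaled to 1 median, the median difference of all genes was 0.231 in WT DCs at 4 h against unstimulated DCs (-0.023 without), 0.137 at 14 h (-0.013) and -0.218 for IFNAR-/- against WT DCs at 14 h (0), and the calls over all genes in WT DCs at 4 h were then 593 higher and 131 lower, against 461 and 230 (628 and 542 with neqc). Of 36 gene pairs, 14 passed with group means removed and also with median scaling, and 2 passed with set means removed, where 4 of the 14 turned in sign: Itgae with Dtx1 (0.192), Cadm1 with Sirpa (-0.005), Cadm1 with Dtx1 (0.138) and Sirpa with Dtx1 (0.376).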
